A study of Mus musculus with 6 samples.

Results

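Nuclear genes for respiratory complexes II to V and for cytochrome c were followed in sorted mouse muscle stem cells. The genes were taken by symbol: Sdha, Sdhb, Sdhc or Sdhd, any symbol starting with Uqcr, Cox4, Cox5, Cox6, Cox7, Cox8 or Atp5, and Cyc1 and Cycs. Of 12067 genes in the table, 47 matched. They comprise 4 genes of complex II, 9 of complex III, the gene for cytochrome c, 15 of complex IV, 17 of complex V, and Cox7a2l, which encodes a factor for joining complexes into supercomplexes and is not a subunit. Of the 47 genes, 46 reached 1 RPKM (reads scaled to gene length and to library size) in at least 2 libraries and were tested, and Cox6a2 did not.

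The cells came from male C57BL/6 mice and were sorted as CD45-, CD31-, Sca1- and VCAM+ muscle stem cells, then stained with 5 uM ThiolTracker Violet, a dye for reduced glutathione (GSH), and sorted again. The young group (4 months) held all stained cells of 1 animal per library, nearly all of which the labels describe as GSH-high. The old cells (23 months) were split by staining into a GSH-high and a GSH-low fraction, each made from 2 pooled animals per library. Each group had 2 libraries. The labels do not say whether both old fractions were cut from the same pools, and age goes together with pooling and with the split by dye.

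Libraries held 47.00 to 68.79 M recovered reads, of which the 47 genes took 0.503% to 0.754%. Satellite cell markers were present in every library: Pax7, the transcription factor that defines these cells, had 7.93 and 7.64 RPKM in young, 8.09 and 8.65 in old GSH-high and 11.2 and 12.6 in old GSH-low. The summed level of 9 of 9 markers was 2043 to 2064 RPKM in young, 1891 to 2022 in old GSH-high and 1662 to 1667 in old GSH-low. Des (767 and 745 RPKM in young) and Myod1 (688 and 674) were most of this sum. Myod1 had 877 and 759 RPKM in old GSH-high and 630 and 594 in old GSH-low. Between the old fractions its log2 fold change was -0.41 ± 0.10 (SE, limma-trend adjusted p = 0.0542). Against young, 3 of the 9 markers fell in old GSH-high, with log2 fold changes of -1.13 for Calcr, -0.46 for Des and -0.36 for Chrdl2. In old GSH-low 4 fell, Calcr (-0.99), Des (-0.60), Itga7 (-0.51) and Chrdl2 (-0.30), and Pax7 was the 1 that rose (0.55). Markers of other cells moved with age and fraction. Tenocyte markers (8 of 8 measured) summed to 33.9 to 35.9 RPKM in young, 639 to 807 in old GSH-high and 2654 to 3042 in old GSH-low. In the same order, fat cell markers (4 of 9 measured) summed to 0.365 to 0.405, 48.9 to 69.8 and 2.21 to 3.34 RPKM, and endothelial markers (12 of 12) to 41.3 to 49.6, 86.4 to 87.1 and 29.2 to 35.6. Markers of fibro-adipogenic progenitors (9 of 9) summed to 811 to 825, 1149 to 1200 and 1668 to 1800 RPKM. Those of pericytes and smooth muscle (8 of 8) summed to 135 to 149, 80.2 to 99.97 and 104 to 105. In young, Gsn (625 and 650 RPKM) was most of the first sum and Acta2 (141 and 125) most of the second. Against young, 7 of the 9 progenitor markers rose in old GSH-high, and 6 rose and Ly6a fell in old GSH-low. Between the old fractions 2 were higher in GSH-low and 2 lower. Of 7 pericyte and smooth muscle markers tested, 6 rose in old GSH-high and 5 in old GSH-low, while Acta2 fell in both. Over all genes 15.1% rose in old GSH-high and 18.1% in old GSH-low. The sums were 5.38 to 7.51, 27.5 to 36.2 and 29.5 to 32.6 RPKM for macrophages (4 of 7), 1.007 to 1.03, 1.92 to 2.09 and 12.8 to 15.6 for lymphocytes (4 of 6), and 5.21 to 7.08, 12.7 to 13.7 and 10.1 to 14.3 for Schwann cells (6 of 6). Their part in the differences below was not tested. In such bulk samples, fewer cells of a type and less RNA per cell cannot be told apart.

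Oxidative phosphorylation passes electrons along a chain of protein complexes in the inner mitochondrial membrane and uses the proton gradient this builds to make ATP. Complex II oxidises succinate and is also an enzyme of the tricarboxylic acid cycle; complex III hands electrons to cytochrome c; complex IV, cytochrome c oxidase, gives them to oxygen; and complex V is the ATP synthase. Complex II is encoded wholly in the nucleus, while complexes III, IV and V each combine nuclear subunits with some made from mitochondrial DNA. Quiescent muscle stem cells are known for a low respiratory rate that rises when they are activated, and muscle fibres use their own paralogs of several complex IV subunits.

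Promoters of nuclear respiratory genes are known for sites of NRF1 and of ETS factors such as GABP. RefSeq promoter windows (250 bases before to 50 bases after the annotated start, GRCm38.p6) were matched by symbol for 35 of the 47 genes. The windows of 6 genes whose RNA levels are described below are printed 5′ to 3′ on the gene's strand, with capitals marking each match to GCATGCGC, the NRF1 core, or CCGGAAG, an ETS site, on either strand. Atp5g2 had the lowest fitted change among the complex V genes in old GSH-low cells, Cox6a1 and Cycs show further NRF1 matches, Sdhd and Sdha are subunits of 1 complex, of which Sdhd fell and Sdha did not pass the test, and Cox8b is the muscle-type gene that rose.

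Atp5g2 (chr15:102670998-102671297, minus strand): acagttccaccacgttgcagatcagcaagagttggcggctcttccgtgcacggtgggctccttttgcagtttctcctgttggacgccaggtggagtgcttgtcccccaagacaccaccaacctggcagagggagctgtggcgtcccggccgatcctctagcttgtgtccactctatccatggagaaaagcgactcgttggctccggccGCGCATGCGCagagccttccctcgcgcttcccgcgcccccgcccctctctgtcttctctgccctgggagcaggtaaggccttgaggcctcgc
Cox6a1 (chr5:115348909-115349208, minus strand): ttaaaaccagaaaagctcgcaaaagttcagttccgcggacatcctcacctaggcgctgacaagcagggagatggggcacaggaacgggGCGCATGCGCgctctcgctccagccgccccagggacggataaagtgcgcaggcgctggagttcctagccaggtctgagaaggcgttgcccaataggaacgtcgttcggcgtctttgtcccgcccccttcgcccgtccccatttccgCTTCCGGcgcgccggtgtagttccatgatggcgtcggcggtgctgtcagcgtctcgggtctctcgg
Cycs (chr6:50566520-50566819, minus strand): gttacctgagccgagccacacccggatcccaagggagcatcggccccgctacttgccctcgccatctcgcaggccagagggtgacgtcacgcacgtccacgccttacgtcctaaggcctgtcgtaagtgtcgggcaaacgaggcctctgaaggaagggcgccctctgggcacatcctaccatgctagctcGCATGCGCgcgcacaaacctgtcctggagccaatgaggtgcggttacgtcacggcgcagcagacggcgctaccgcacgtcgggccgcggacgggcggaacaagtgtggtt
Sdhd (chr9:50603800-50604099, minus strand): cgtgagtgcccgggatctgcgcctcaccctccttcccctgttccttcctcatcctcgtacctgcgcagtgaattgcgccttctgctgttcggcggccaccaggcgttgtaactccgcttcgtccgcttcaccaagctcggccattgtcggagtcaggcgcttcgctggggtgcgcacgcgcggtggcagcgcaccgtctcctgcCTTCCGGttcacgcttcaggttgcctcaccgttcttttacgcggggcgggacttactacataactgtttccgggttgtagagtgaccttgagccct
Sdha (chr13:74350191-74350490, minus strand): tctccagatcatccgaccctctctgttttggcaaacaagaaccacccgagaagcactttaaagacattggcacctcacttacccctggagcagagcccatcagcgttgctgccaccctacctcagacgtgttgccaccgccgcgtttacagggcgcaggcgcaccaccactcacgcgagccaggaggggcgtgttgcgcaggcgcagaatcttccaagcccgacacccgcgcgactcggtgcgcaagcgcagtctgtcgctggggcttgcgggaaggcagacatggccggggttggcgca
Cox8b (chr7:140900397-140900696, minus strand): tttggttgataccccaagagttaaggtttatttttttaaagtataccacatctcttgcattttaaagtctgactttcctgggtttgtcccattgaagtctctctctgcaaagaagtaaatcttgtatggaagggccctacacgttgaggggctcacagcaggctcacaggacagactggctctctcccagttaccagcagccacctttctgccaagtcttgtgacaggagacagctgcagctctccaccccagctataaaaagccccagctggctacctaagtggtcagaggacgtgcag

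In Atp5g2 and in Cox6a1 the NRF1 core matched on both strands of an overlapping 10-letter palindrome, which began 42 bases before the start in Atp5g2 and 162 before it in Cox6a1. Cycs held the core once, 60 bases before the start. ETS matches lay 16 bases before the start in Cox6a1 and 46 before it in Sdhd. The Sdha and Cox8b windows held neither string.

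The 35 matched genes had 38 windows, and a gene was counted if any of its windows held the string. The NRF1 core occurred in 8 of the 35 genes (22.9%): Atp5g2, Atp5k, Atp5l, Cox6a1, Cycs, Sdhb, Uqcr11 and Uqcrc1. It occurred in 3.05% of 27025 genes with a window and in 6.12% of the 8330 of these that were tested for expression. The ETS string occurred in 13 of the 35 genes (37.1%), against 9.93% and 20.6%. AAGATGGC, a YY1 site, occurred in 2 (5.71%, against 3.19% and 5.63%), and TCAAGGTCA, a site of the estrogen-related receptors, in 2 (5.71%, against 0.466% and 0.30%). All 4 strings were searched on both strands. A match is a string of letters and no measure of binding, and an absent match says only that these letters are not in the window.

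Each old fraction was compared with the young cells, which had not been split by staining. Nuclear respiratory genes were lower in both old fractions. In old GSH-high cells 32 of the 46 tested genes fell and 1, Cox8b, rose, and 13 did not pass the test. In old GSH-low cells 38 fell, Cox8b rose, and 7 did not pass. The median log2 fold change of the 46 genes was -0.49 in old GSH-high and -0.50 in old GSH-low, beside medians of -0.00 and -0.02 over all genes tested. Below, each change is a log2 fold change against young, given first for old GSH-high and then for old GSH-low unless a group is named. Calls were made with limma-trend on log2(RPKM + 1) at a Benjamini-Hochberg adjusted p under 0.05 over 10609 genes. Of all genes tested, 13.7% fell and 15.1% rose in old GSH-high, and 18.7% fell and 18.1% rose in old GSH-low. This split over all genes moved with the scaling: in old GSH-high 1453 genes fell and 1598 rose, against 1124 and 1930 with scaling to library size only and 2154 and 1566 with a trend over coding length removed. In old GSH-low 1982 fell and 1919 rose, against 1487 and 2258 with library size only and 2847 and 1736 with the coding length trend removed. Of the respiratory genes, 27 fell in old GSH-high and 33 in old GSH-low with library size only.

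Both old libraries lay below both young libraries for 41 of the 46 genes in each comparison. The share of all genes with this pattern was 33.7% for old GSH-high and 36.5% for old GSH-low. The 2 comparisons use the same young libraries; 31 genes fell in both. For 14 genes (Atp5a1, Atp5d, Atp5f1, Atp5j, Atp5l, Atp5o, Cox4i1, Cox5a, Cox6a2, Cox6c, Sdha, Uqcrb, Uqcrc2 and Uqcrh) the span from start to end overlaps that of a gene on the opposite strand. Overlap of their exons was not examined. Where exons do overlap, reads cannot be told apart without the strand.

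**Figure D1:**
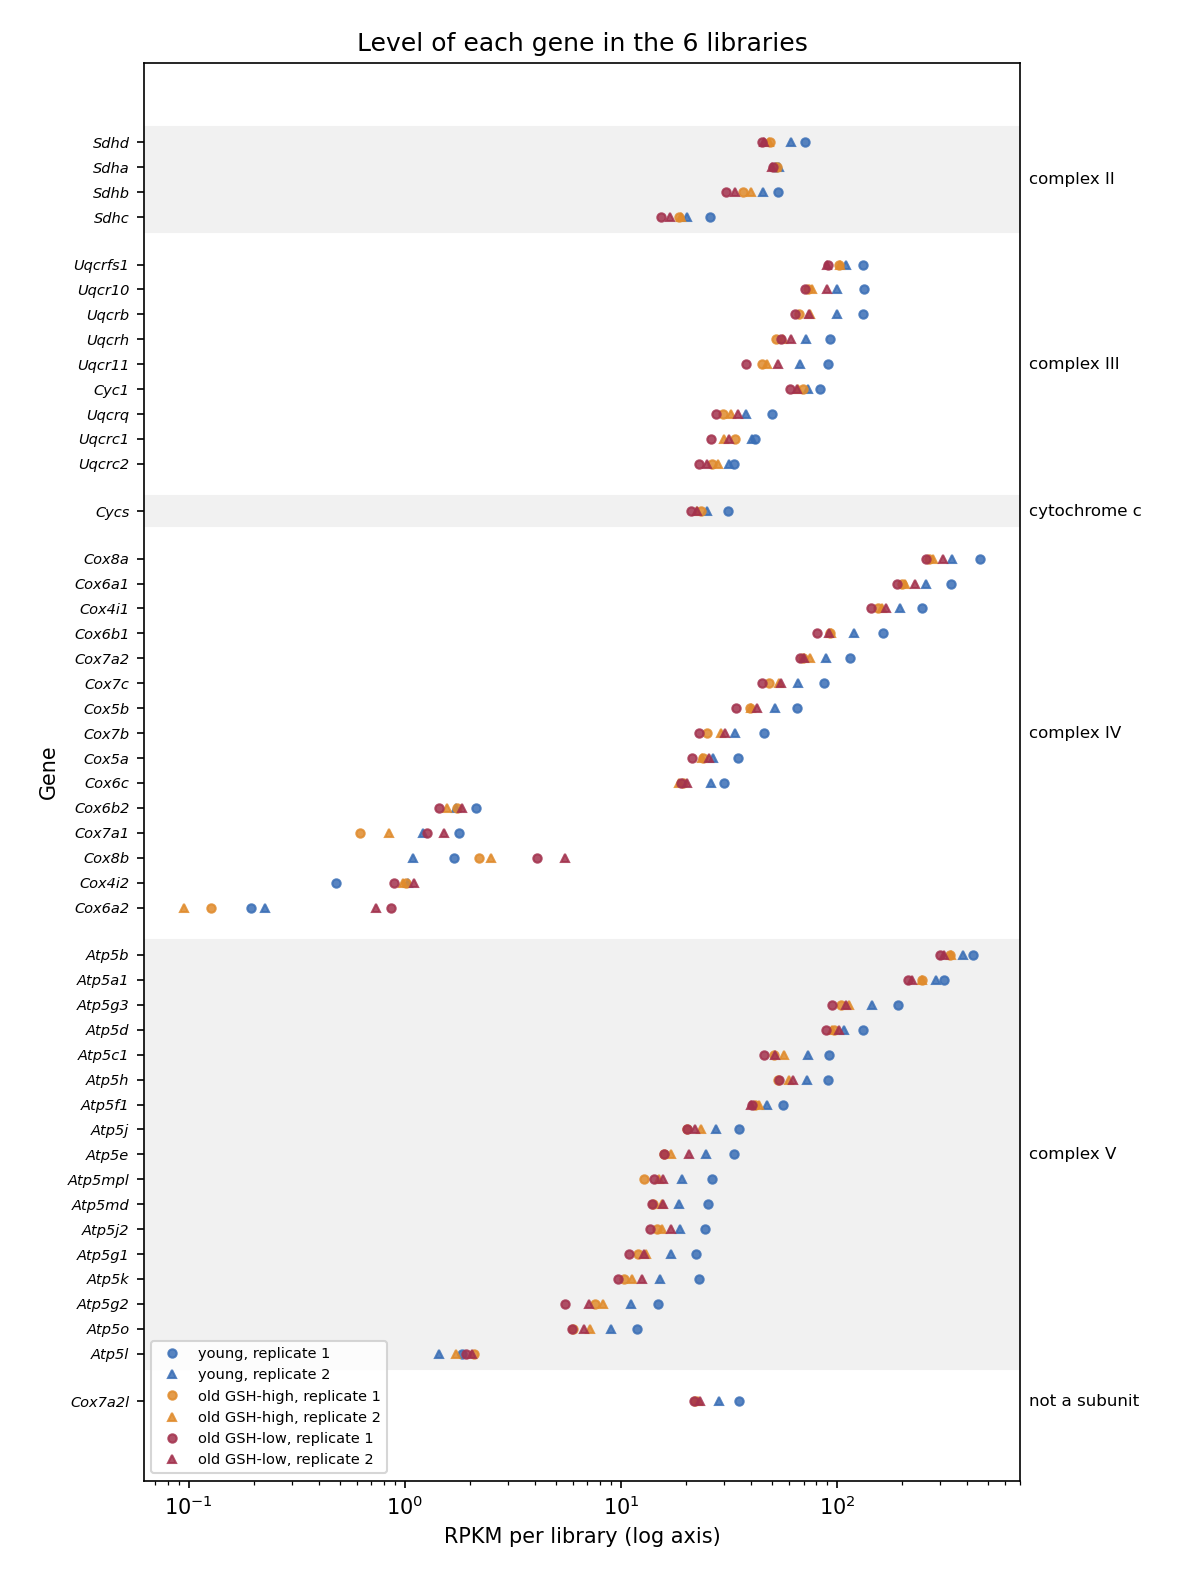
RPKM of each gene (rows, grouped by complex) in each of the 6 libraries on a log axis; circles are replicate 1, triangles replicate 2, and colours mark the group. For most genes both young points lie to the right of all old points, with young replicate 1 farthest right, while Sdha stays near 50 RPKM throughout and Cox8b and Cox6a2 are highest in old GSH-low.

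The young libraries differed from each other in these genes. Young replicate 1 was above young replicate 2 for 44 of the 46 genes, with a median ratio of 1.29, while over all genes it was above in 54.1%. In old GSH-low, replicate 2 was above replicate 1 for 43 of 46, with a median ratio of replicate 1 to 2 of 0.871. Against young replicate 1 alone the median log2 ratio was -0.68 for both old groups. Against young replicate 2, the lower of the pair, it was -0.33 for old GSH-high, with 44 of 46 genes below, and -0.34 for old GSH-low, with 43 of 46 below.

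The number of genes called moved with single libraries, and the direction of the median did not. Without young replicate 1, 12 genes fell in old GSH-high in place of 32, and 24 in old GSH-low in place of 38; over all genes, those that fell went from 1453 to 978 and from 1982 to 1597. Without old GSH-high replicate 1, 3 respiratory genes fell in old GSH-high, and without its replicate 2, 17; over all genes the falls went from 1453 to 565 and 774. Without old GSH-low replicate 1, 10 respiratory genes fell in old GSH-low, and over all genes 796 in place of 1982. The median stayed between -0.67 and -0.32 for old GSH-high and between -0.67 and -0.33 for old GSH-low over the 6 fits that left out 1 library each. Over those and 11 other alternatives, the falls of Atp5e, Cox6c and Uqcrb in old GSH-high were called throughout, as were the rise of Cox8b and the falls of Atp5a1, Atp5c1, Atp5g1, Atp5g2, Atp5g3, Cox6b1, Cox6c, Sdhb, Sdhd and Uqcrb in old GSH-low.

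Of the 4 subunits of complex II, 2 fell in old GSH-high and 3 in old GSH-low. Sdha (chr13:74322254-74350280), the flavoprotein that oxidises succinate, had 52.2 and 53.8 RPKM in young, 52.7 and 52.5 in old GSH-high and 50.8 and 50.01 in old GSH-low. These 6 values lie within a narrow band, and the log2 fold changes were -0.01 ± 0.08 (SE, adjusted p = 0.928) for old GSH-high and -0.07 ± 0.08 (SE, adjusted p = 0.492) for old GSH-low against young. Sdhb, the iron-sulfur subunit that takes electrons from Sdha, had 53.03 and 45.3 RPKM in young, 36.6 and 39.8 in old GSH-high and 30.8 and 33.8 in old GSH-low. All old libraries were below both young ones, and the GSH-low libraries were the lowest; the changes were -0.35 ± 0.10 (SE, adjusted p = 0.0318) and -0.59 ± 0.10 (SE, adjusted p = 0.00253). Sdhb lost its call in old GSH-high when young replicate 1 or either old GSH-high library was left out (adjusted p up to 0.210). Sdhb also lost it with scaling to library size only (adjusted p = 0.0611) and with the replicate number as a block (0.0614).

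The membrane anchors of complex II, Sdhc and Sdhd, hold the heme and the ubiquinone site. Sdhd had 70.8 and 61.4 RPKM in young, 48.95 and 48.5 in old GSH-high and 44.9 and 45.8 in old GSH-low, so that old and young did not overlap. It fell in both comparisons, with -0.43 ± 0.09 (SE, adjusted p = 0.00841) and -0.53 ± 0.09 (SE, adjusted p = 0.0023). Sdhc had 25.7 and 20.2 RPKM in young, 18.5 and 18.9 in old GSH-high and 15.3 and 16.8 in old GSH-low. It fell in old GSH-low, -0.48 ± 0.12 (SE, adjusted p = 0.0116), and gave -0.27 ± 0.12 (SE, adjusted p = 0.108) in old GSH-high. Sdhd lost its call in old GSH-high when either old GSH-high library was left out (adjusted p up to 0.0612). Sdhc lost its call in old GSH-low when old GSH-low replicate 1 was left out (adjusted p up to 0.0896). The difference between Sdha and its partners was not tested as such.

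All 9 complex III genes fell in old GSH-low, and 6 of 9 fell in old GSH-high. The genes of the subunits that carry electrons were among those with smaller changes. Uqcrfs1, the Rieske iron-sulfur protein, had 132 and 110.3 RPKM in young, 102 and 103 in old GSH-high and 90.4 and 90.2 in old GSH-low; both old groups lay below the young. Cyc1, cytochrome c1, had 83.2 and 73.4 RPKM in young, 69.3 and 66.2 in old GSH-high and 60.4 and 65.5 in old GSH-low. Uqcrfs1 changed by -0.41 ± 0.10 (SE, adjusted p = 0.0114) and Cyc1 by -0.31 ± 0.09 (SE, adjusted p = 0.0298) in old GSH-low. In old GSH-high neither passed, with -0.23 ± 0.10 (SE, adjusted p = 0.114) and -0.20 ± 0.09 (SE, adjusted p = 0.134). Uqcrfs1 lost its call in old GSH-low only when either old GSH-low library was left out. Cyc1 lost its call in old GSH-low when young replicate 1, either old GSH-high library or either old GSH-low library was left out. Cyc1 also lost it with scaling to library size only (adjusted p = 0.0677), with the 4 libraries of the comparison alone (0.062) and with the replicate number as a block (0.0571).

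The large core proteins, which face the matrix, were also lower. Uqcrc1 had 41.9 and 40.3 RPKM in young, 33.8 and 30.00 in old GSH-high and 26.02 and 31.6 in old GSH-low, and fell in both comparisons, with -0.36 ± 0.11 (SE, adjusted p = 0.0374) and -0.50 ± 0.11 (SE, adjusted p = 0.0072). Uqcrc2 had 33.3 and 31.6 RPKM in young, 26.5 and 28.1 in old GSH-high and 23.1 and 25.1 in old GSH-low; it fell in old GSH-low, with -0.42 ± 0.09 (SE, adjusted p = 0.00568), and gave -0.24 ± 0.09 (SE, adjusted p = 0.063) in old GSH-high. Old and young libraries did not overlap for either gene. Uqcrc1 lost its call in old GSH-high when young replicate 1 or either old GSH-high library was left out (adjusted p up to 0.219). Uqcrc1 also lost it with scaling to library size only (adjusted p = 0.0704) and with the replicate number as a block (0.0674). Uqcrc1 and Uqcrc2 lost their calls in old GSH-low when old GSH-low replicate 1 was left out (adjusted p up to 0.0720).

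The small subunits Uqcrb, Uqcrh, Uqcr10, Uqcr11 and Uqcrq fell in both comparisons. Uqcrb (chr13:66900617-66905378), a small subunit on the matrix side, had 132 and 100.3 RPKM in young, 66.5 and 74.6 in old GSH-high and 63.8 and 73.8 in old GSH-low. Each old library was below each young one, with changes of -0.70 ± 0.14 (SE, adjusted p = 0.00582) and -0.74 ± 0.14 (SE, adjusted p = 0.00353), and both calls were kept in all 17 alternatives run. Uqcrh, the hinge protein that helps cytochrome c1 meet cytochrome c, had 92.4 and 71.7 RPKM in young, 51.9 and 56.4 in old GSH-high and 55.2 and 60.9 in old GSH-low. Its changes were -0.58 ± 0.12 (SE, adjusted p = 0.00883) and -0.48 ± 0.12 (SE, adjusted p = 0.0159). Uqcr10, Uqcr11 and Uqcrq gave values from -0.48 (Uqcrq) to -0.76 (Uqcr11) in old GSH-high and from -0.48 to -0.79 in old GSH-low. Uqcrh, Uqcr10, Uqcr11 and Uqcrq lost their calls in old GSH-high in 1 or more of the fits that left out young replicate 1 or either old GSH-high library (adjusted p up to 0.194). Uqcrq also lost it with scaling to library size only (adjusted p = 0.0665) and with the replicate number as a block (0.0658). Uqcrh, Uqcr10, Uqcr11 and Uqcrq lost their calls in old GSH-low in 1 or more of the fits that left out young replicate 1 or old GSH-low replicate 1 (adjusted p up to 0.229). Uqcrq also lost it with scaling to library size only (adjusted p = 0.0588) and with the replicate number as a block (0.0524).

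Cycs, somatic cytochrome c, the soluble carrier between complexes III and IV that also triggers caspase activation when released, had 31.2 and 24.9 RPKM in young, 23.4 and 22.4 in old GSH-high and 20.99 and 22.4 in old GSH-low. Young replicate 2 lay close above the old libraries and young replicate 1 well above them. Cycs fell in old GSH-low, -0.35 ± 0.11 (SE, adjusted p = 0.0368), and gave -0.27 ± 0.11 (SE, adjusted p = 0.0954) in old GSH-high. Cycs lost its call in old GSH-low when young replicate 1, either old GSH-high library or either old GSH-low library was left out (adjusted p up to 0.189). Cycs also lost it with scaling to library size only (adjusted p = 0.0716), with the 4 libraries of the comparison alone (0.063) and with the replicate number as a block (0.0544).

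**Figure D2:**
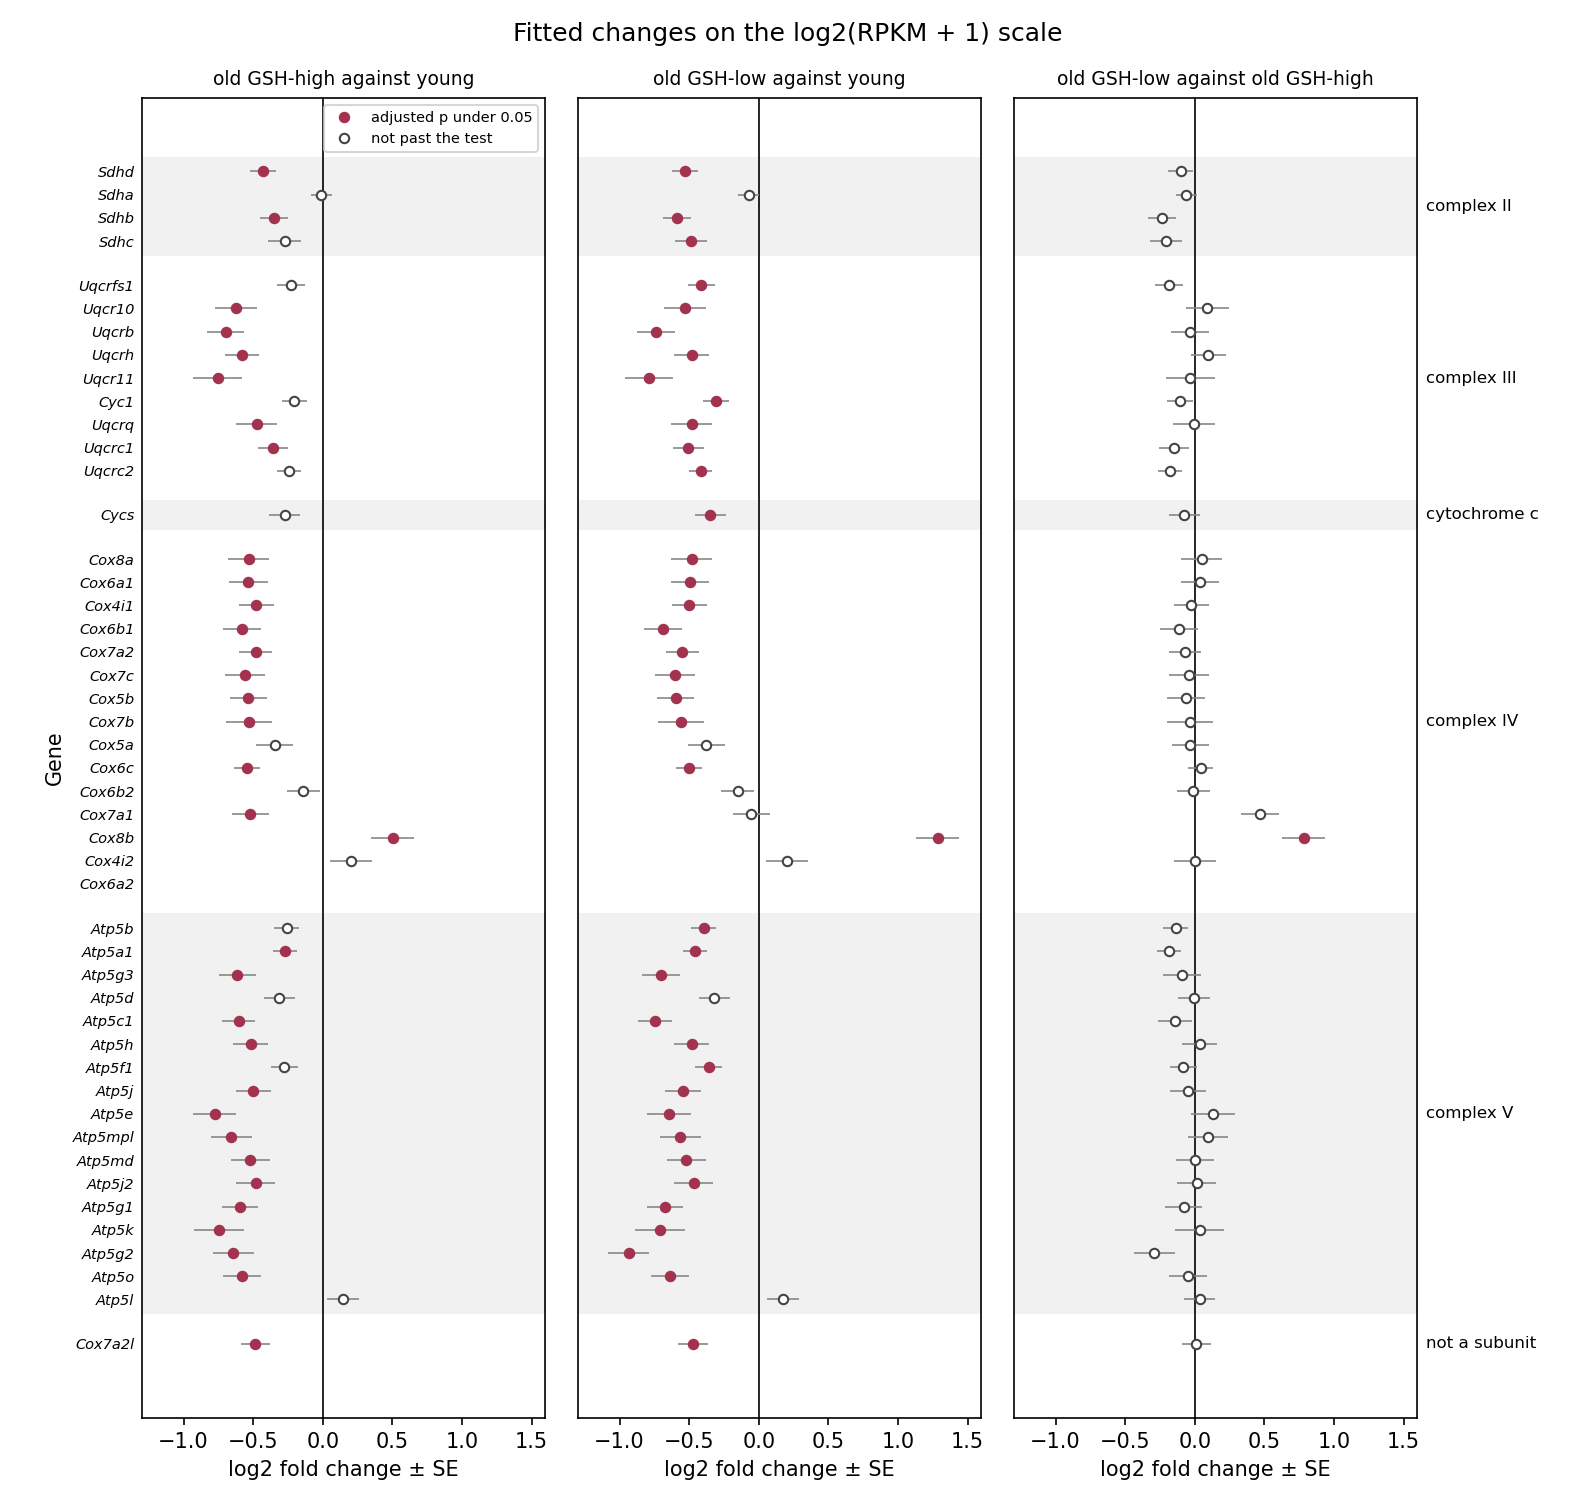
Fitted log2 fold change with its standard error for each gene (rows, in the order of the plot of levels) in the 3 comparisons; filled points passed an adjusted p of 0.05 and open points did not. In the left and middle panels most points sit left of 0, and in the right panel Cox8b is the 1 filled point. Cox6a2 has no point because it was not tested.

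Complex IV, with 14 tested genes, had 10 that fell in old GSH-high and 9 in old GSH-low. Cox6c (chr15:35925886-35938246), a subunit of the membrane part, had 30.01 and 26.2 RPKM in young, 19.3 and 18.6 in old GSH-high and 18.9 and 20.2 in old GSH-low. Its young libraries were close together and above all old ones, its changes were -0.54 ± 0.09 (SE, adjusted p = 0.00306) and -0.50 ± 0.09 (SE, adjusted p = 0.00353), and both calls were kept in all 17 alternatives. Cox5b, Cox7b and Cox7c fell in both comparisons, with log2 fold changes between -0.56 and -0.53 in old GSH-high and between -0.60 and -0.56 in old GSH-low. Cox5a, a subunit on the matrix side, missed the threshold with -0.35 ± 0.13 (SE, adjusted p = 0.0841) and -0.38 ± 0.13 (SE, adjusted p = 0.0547). Cox7a2l, the supercomplex factor, fell in both comparisons, with -0.48 ± 0.11 (SE, adjusted p = 0.01) and -0.47 ± 0.11 (SE, adjusted p = 0.00887). Cox7a2l lost its call in old GSH-high only when old GSH-high replicate 1 was left out. Cox5b, Cox7b and Cox7c lost theirs in 1 or more of the fits that left out young replicate 1 or either old GSH-high library. Cox7b also lost it with scaling to library size only (adjusted p = 0.0647) and with the replicate number as a block (0.0631). Cox5b, Cox7c and Cox7a2l lost their calls in old GSH-low only when old GSH-low replicate 1 was left out. Cox7b lost its call there without that library and without young replicate 1.

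Several complex IV subunits exist as paralogs that replace each other by tissue. The widely expressed forms were the abundant ones here and fell with age. Cox4i1, a core regulatory subunit, had 248 and 196 RPKM in young, 155 and 162 in old GSH-high and 144 and 168 in old GSH-low. Cox6a1 had 335 and 257 RPKM in young, 199 and 206 in old GSH-high and 189.8 and 228 in old GSH-low. Cox8a, among the most abundant of all 47 genes, had 459 and 339.9 RPKM in young, 267 and 279 in old GSH-high and 259 and 309 in old GSH-low. In each of these genes young replicate 1 was highest and all 4 old libraries were below young replicate 2. Their changes were -0.48, -0.53 and -0.53 in old GSH-high (SE 0.13, 0.14 and 0.15) and -0.50, -0.49 and -0.48 in old GSH-low, with adjusted p between 0.0145 and 0.0317 over the 6 values by limma-trend. Cox4i1, Cox6a1 and Cox8a lost their calls in old GSH-high in 1 or more of the fits that left out young replicate 1 or either old GSH-high library (adjusted p up to 0.127). Cox4i1, Cox6a1 and Cox8a lost their calls in old GSH-low in 1 or more of the fits that left out young replicate 1 or old GSH-low replicate 1 (adjusted p up to 0.213). Cox8a also lost it with scaling to library size only (adjusted p = 0.0529) and with the 4 libraries of the comparison alone (0.0515).

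Cox6b1, which helps hold the dimer of complex IV together, had 163 and 120.0 RPKM in young, 92.3 and 94.2 in old GSH-high and 81.1 and 91.5 in old GSH-low. Cox7a2 had 115 and 89.3 RPKM in young, 69.8 and 74.9 in old GSH-high and 67.6 and 70.1 in old GSH-low. Both fell in both comparisons, Cox6b1 with -0.58 ± 0.14 (SE, adjusted p = 0.0139) and -0.69 ± 0.14 (SE, adjusted p = 0.0048) and Cox7a2 with -0.48 ± 0.12 (SE, adjusted p = 0.0165) and -0.55 ± 0.12 (SE, adjusted p = 0.00721). The other form of each of 2 pairs was scarce and did not pass. Cox4i2, the form of lung and of low oxygen, had 0.480 and 1.04 RPKM in young, 1.009 and 0.984 in old GSH-high and 0.890 and 1.11 in old GSH-low, with young replicate 1 the lowest. Cox6b2, known from testis, had 2.14 and 1.72 RPKM in young, 1.75 and 1.56 in old GSH-high and 1.44 and 1.84 in old GSH-low, with the groups overlapping. Cox6b1 and Cox7a2 lost their calls in old GSH-high in 1 or more of the fits that left out either old GSH-high library (adjusted p up to 0.113). Cox7a2 lost its call in old GSH-low when old GSH-low replicate 1 was left out (adjusted p up to 0.0555).

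The muscle-type paralogs Cox6a2, Cox7a1 and Cox8b, which mature heart and skeletal muscle use, were rare, at under 6 RPKM in every library. Cox8b (chr7:140898945-140900446 on GRCm38) had 1.69 and 1.09 RPKM in young, 2.21 and 2.51 in old GSH-high and 4.11 and 5.54 in old GSH-low. In that order these came from 37 and 23, 55 and 56, and 76 and 96 reads. The groups did not overlap and rose in steps from young to old GSH-high to old GSH-low. Cox8b changed by 0.50 ± 0.15 (SE, adjusted p = 0.0395) in old GSH-high and 1.29 ± 0.15 (SE, adjusted p = 3.38e-04) in old GSH-low against young, and by 0.78 ± 0.15 (SE, adjusted p = 0.0207) in old GSH-low against old GSH-high. Its share of the summed RPKM of Cox8a and Cox8b was 0.343% ± 0.0340 (SD, n = 2) in young, 0.856% ± 0.0523 in old GSH-high and 1.66% ± 0.138 in old GSH-low. The rise against young in old GSH-low was called in all 17 alternatives. The call between the old fractions ended with limma-voom (adjusted p = 0.0914), without either old GSH-high library (0.117 and 0.0612) and without old GSH-low replicate 2 (0.161); the rise in old GSH-high against young ended in 5 alternatives, with adjusted p from 0.0591 to 0.158. Cox8b lost its call in old GSH-high when young replicate 2 or either old GSH-high library was left out (adjusted p up to 0.158). Cox8b also lost it with the replicate number as a block (adjusted p = 0.059) and with limma-voom (0.13).

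Cox7a1 had 1.78 and 1.21 RPKM in young, 0.621 and 0.846 in old GSH-high and 1.27 and 1.51 in old GSH-low. In that order these came from 58 and 38, 23 and 28, and 35 and 39 reads. Old GSH-high was below both other groups, which overlapped. It fell in old GSH-high against young, -0.52 ± 0.14 (SE, adjusted p = 0.0208); that call ended without young replicate 1 (adjusted p = 0.114), without old GSH-high replicate 1 (0.134) and with limma-voom (0.0610). Between the old fractions it gave 0.47 ± 0.14 (SE, adjusted p = 0.0979). This passed in 5 alternatives, among them the fit to the 4 old libraries alone (adjusted p = 0.0488).

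Cox6a2, below the filter, had 0.194 and 0.225 RPKM in young, 0.128 and 0.0951 in old GSH-high and 0.859 and 0.733 in old GSH-low, from 8 and 9, 6 and 4, and 30 and 24 reads. Both old GSH-low libraries were above all others. Pooled by group, the ratio of scaled reads was 7.11 (95% exact interval 3.59 to 15.7, counting error only) for old GSH-low against old GSH-high and 3.82 (2.18 to 7.02) against young. In the fit without the filter it changed by 0.69 ± 0.09 (SE, adjusted p = 0.00240) and 0.57 ± 0.09 (adjusted p = 0.00166) in these 2 comparisons.

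Markers of muscle fibres moved beside these paralogs. Of 14 myofibre markers 11 were measured, and their summed level was 46.9 to 47.4 RPKM in young, 26.6 to 29.9 in old GSH-high and 60.5 to 61.7 in old GSH-low. Of 8 tested, 7 rose in old GSH-low against old GSH-high, where 3.69% of all genes rose, and their median log2 fold change was 1.04. Against young, 1 of the 8 rose and 2 fell in old GSH-high, and 6 rose and 1 fell in old GSH-low. Tnnt3, fast troponin T, had 1.77 and 1.67 RPKM in young, 2.41 and 2.52 in old GSH-high and 9.14 and 9.29 in old GSH-low, and Acta1, skeletal alpha-actin, 13.96 and 13.9 RPKM in young, 10.9 and 11.5 in old GSH-high and 23.8 and 23.9 in old GSH-low. The fibre myosin gene Myh4 was listed at 0.159 and 0.249 RPKM in young, 0.207 and 0.177 in old GSH-high and 0.641 and 0.570 in old GSH-low. Atp2a1 and Myh1, of the same list, were highest in young. Atp2a1, the calcium pump of fast fibres, had 24.2 and 23.98 RPKM in young, 8.56 and 9.61 in old GSH-high and 11.6 and 10.2 in old GSH-low and fell in both comparisons with young, with -1.32 ± 0.10 (SE, adjusted p = 3.13e-05) and -1.08 ± 0.10 (SE, adjusted p = 6.05e-05), and Myh1, a fast fibre myosin, had 0.583 and 0.836 RPKM in young, 0.155 and 0.229 in old GSH-high and 0.374 and 0.468 in old GSH-low. By mean, Cox6a2 had the groups in the order of the marker sum (lowest in old GSH-high, highest in old GSH-low). Cox7a1 was lowest in old GSH-high but about as high in young as in old GSH-low, and Cox8b was lowest in young. The part of fibre RNA in these values was not tested.

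**Figure D3:**
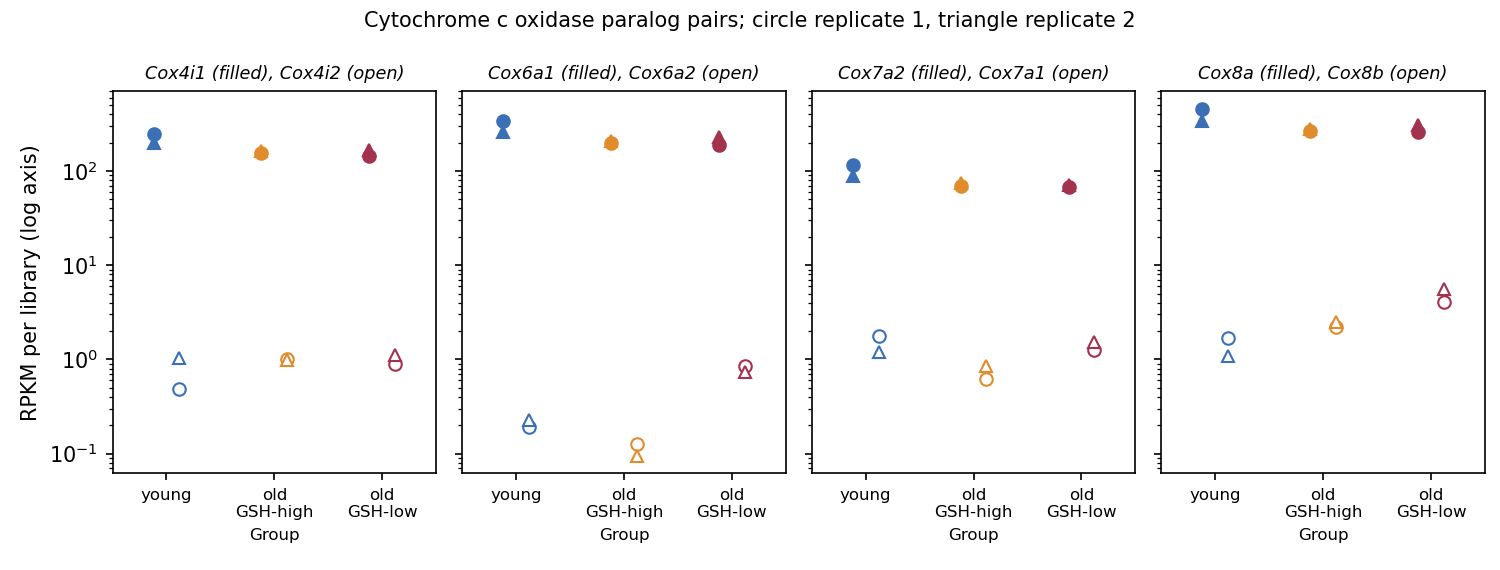
RPKM per library (log axis) of 4 pairs of complex IV paralogs in the 3 groups; filled symbols are the widely expressed form, open symbols the other form, circles replicate 1 and triangles replicate 2. The filled symbols lie far above the open ones in every library, and among the open ones Cox8b and Cox6a2 are highest in old GSH-low.

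Complex V, the ATP synthase, had 13 of 17 genes that fell in old GSH-high and 15 of 17 in old GSH-low. Its catalytic head is a ring of alpha and beta subunits. Atp5a1, the alpha subunit, had 312 and 285 RPKM in young, 246 and 248 in old GSH-high and 213 and 221 in old GSH-low. Atp5b, the beta subunit that forms ATP, had 424 and 383 RPKM in young, 335 and 338 in old GSH-high and 299 and 313 in old GSH-low. For both genes the order was young, old GSH-high, old GSH-low with no overlap. Atp5a1 fell in both comparisons, with -0.27 ± 0.09 (SE, adjusted p = 0.0451) and -0.46 ± 0.09 (SE, adjusted p = 0.00398); the first of these calls ended in 8 of 17 alternatives, with adjusted p from 0.0853 to 0.231, and the second in none. Atp5a1 lost its call in old GSH-high when young replicate 1, either old GSH-high library or either old GSH-low library was left out (adjusted p up to 0.231). Atp5a1 also lost it with scaling to library size only (adjusted p = 0.0877), with the 4 libraries of the comparison alone (0.0905) and with the replicate number as a block (0.0853). Atp5b fell in old GSH-low, -0.40 ± 0.09 (SE, adjusted p = 0.00947), and gave -0.26 ± 0.09 (SE, adjusted p = 0.0607) in old GSH-high. Atp5b lost its call in old GSH-low when old GSH-low replicate 1 was left out (adjusted p up to 0.0931).

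Of the 3 genes of the rotating stalk, 2 fell in both comparisons. Atp5c1, the gamma subunit that turns inside the head, had 92.1 and 73.8 RPKM in young, 51.2 and 56.6 in old GSH-high and 45.9 and 51.9 in old GSH-low. It fell in both comparisons, with -0.60 ± 0.12 (SE, adjusted p = 0.00639) and -0.74 ± 0.12 (SE, adjusted p = 0.00174). Atp5e (chr2:174461072-174464105), the small epsilon subunit at the foot of the stalk, had 33.5 and 24.9 RPKM in young, 15.8 and 17.1 in old GSH-high and 15.9 and 20.6 in old GSH-low. All old libraries were below the young ones, and the changes were -0.78 ± 0.16 (SE, adjusted p = 0.00657) and -0.64 ± 0.16 (SE, adjusted p = 0.0122). The old GSH-high call was kept in all 17 alternatives, and that in old GSH-low was lost when young replicate 1 was left out (adjusted p = 0.0531) and when the first GSH-low library was (0.0976). Atp5d, the delta subunit beside it, missed the threshold with -0.31 ± 0.11 (SE, adjusted p = 0.0717) and -0.32 ± 0.11 (SE, adjusted p = 0.0575). Atp5c1 lost its call in old GSH-high when old GSH-high replicate 1 was left out (adjusted p up to 0.0566).

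Atp5g1, Atp5g2 and Atp5g3 encode the same mature c subunit of the membrane ring with different import sequences. Atp5g3 had 191 and 145 RPKM in young, 104 and 113 in old GSH-high and 95.1 and 109 in old GSH-low. Atp5g1 had 22.1 and 17.04 RPKM in young, 12.01 and 13.1 in old GSH-high and 10.9 and 12.9 in old GSH-low. Atp5g2 had 14.9 and 11.1 RPKM in young, 7.59 and 8.24 in old GSH-high and 5.52 and 7.11 in old GSH-low. Old and young did not overlap for any of the 3, and old GSH-low replicate 1 was the lowest library in each. Atp5g2 fell in both comparisons, with -0.64 ± 0.15 (SE, adjusted p = 0.0122) and -0.93 ± 0.15 (SE, adjusted p = 0.00152), the latter in all 17 alternatives. Atp5g1 fell with values of -0.59 and -0.67 and Atp5g3 with -0.61 and -0.70, with limma-trend adjusted p from 0.00414 to 0.0104. Atp5g3 gave 83.8% ± 0.00123 (SD, n = 2) of the summed RPKM of the 3 genes in young, 84.2% ± 0.00217 in old GSH-high and 84.9% ± 0.515 in old GSH-low. The share of Atp5g2 was 6.47% ± 0.0798, 6.12% ± 0.0109 and 5.22% ± 0.378, and that of Atp5g1 9.76%, 9.71% and 9.84%. Atp5g1, Atp5g2 and Atp5g3 lost their calls in old GSH-high in 1 or more of the fits that left out young replicate 1 or old GSH-high replicate 1 (adjusted p up to 0.0728).

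The remaining complex V genes build the outer stalk and the membrane base. Atp5o (the OSCP subunit that joins stalk and head), Atp5h (subunit d) and Atp5j (coupling factor 6) fell in both comparisons, with log2 fold changes from -0.58 to -0.50 in old GSH-high and from -0.63 to -0.48 in old GSH-low. So did Atp5j2, Atp5k, Atp5md and Atp5mpl, small membrane subunits, from -0.74 (Atp5k) to -0.48 (Atp5j2) and from -0.71 to -0.47. Atp5f1, subunit b of the outer stalk, fell in old GSH-low, -0.36 ± 0.10 (SE, adjusted p = 0.0186), and gave -0.28 ± 0.10 (SE, adjusted p = 0.0597) in old GSH-high. Atp5o, Atp5h, Atp5j, Atp5j2, Atp5k, Atp5md and Atp5mpl lost their calls in old GSH-high in 1 or more of the fits that left out young replicate 1 or either old GSH-high library (adjusted p up to 0.147). Atp5j2 also lost it with the replicate number as a block (adjusted p = 0.0516). Atp5o, Atp5h, Atp5j, Atp5j2, Atp5k, Atp5md, Atp5mpl and Atp5f1 lost their calls in old GSH-low in 1 or more of the fits that left out young replicate 1 or either old GSH-low library (adjusted p up to 0.201). Atp5j2 also lost it with scaling to library size only (adjusted p = 0.0513). Atp5l, subunit g, was the 1 complex V gene with values above 0: 0.14 ± 0.11 (SE, adjusted p = 0.383) and 0.18 ± 0.11 (SE, adjusted p = 0.256). Its RPKM of 1.44 to 2.10 rests on a gene length of 6443 bases around a coding length of 309.

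Coding length went along with the size of the change. In old GSH-high, the 30 tested genes with a coding length under 500 bases had a median log2 fold change of -0.53, and the 15 longer ones -0.27. Over all genes the corresponding medians were -0.21 (912 genes) and 0.01 (9276 genes). In old GSH-low the respiratory genes had medians of -0.53 and -0.42, and all genes -0.23 and -0.01. Spearman's rho between coding length and log2 fold change was 0.52 in old GSH-high and 0.27 in old GSH-low over 45 genes measured in the same libraries, beside 0.22 and 0.22 over 10188 genes. With a smooth trend over coding length removed from each library, 37 and 39 of 45 genes fell and the medians were -0.34 and -0.41, beside -0.05 and -0.08 over all genes.

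**Figure D4:**
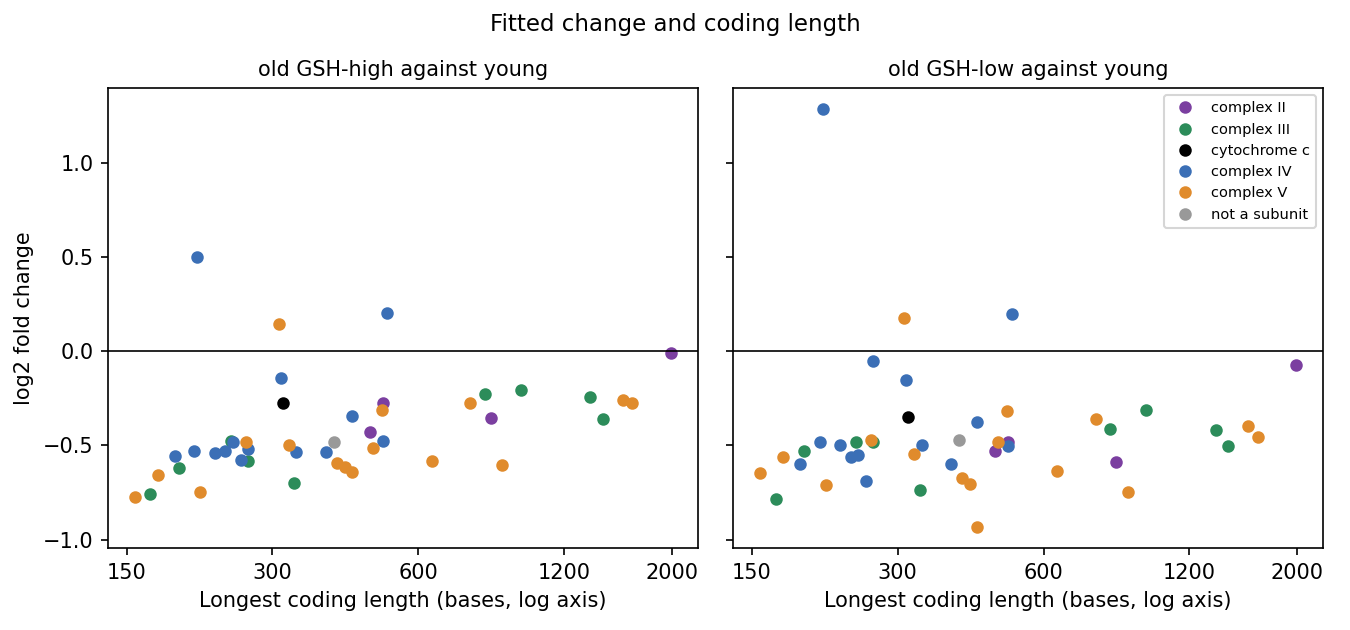
Log2 fold change of 45 tested genes with a coding length, against that length on a log axis, for old GSH-high (left) and old GSH-low (right) against young; colours mark the complex. Genes of under 500 bases have a median of -0.53 in both panels and longer ones -0.27 on the left and -0.42 on the right, with Sdha, the longest, near 0 and Cox8b the highest point.

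The old fractions were set against each other to see which genes go with glutathione content at a single age. Of the respiratory genes, Cox8b rose in old GSH-low, none fell, and 45 of 46 did not pass by limma-trend. Of all genes tested 3.69% rose and 1.69% fell. At an unadjusted p under 0.05, 2 genes were higher (Cox8b and Cox7a1) and 1 was lower, Sdhb, with -0.24 ± 0.10 (SE, adjusted p = 0.255); limma-voom called none. The median log2 fold change was -0.03, beside -0.01 over all genes. For 13 of 46 genes both GSH-low libraries lay below both GSH-high libraries, a pattern held by 29.8% of all genes. All 4 genes of complex II were among them and none passed, with Sdhc at -0.21 ± 0.12 (SE, adjusted p = 0.371) and Sdha at -0.06 ± 0.08 (SE, adjusted p = 0.731). Of 13 tricarboxylic acid cycle enzymes, 10 had the same pattern and 0 passed. The median of the respiratory genes moved from -0.13 without old GSH-low replicate 2 to 0.07 without old GSH-low replicate 1, so that its sign depends on that pair. Spearman's rho with coding length was -0.68 over the 45 genes and 0.04 over all genes.

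Genes around complexes II to V were read from lists of related genes. The list for complex I, which starts the chain at NADH, held 38 tested table lines (37 genes, with Ndufa13 on 2 lines). Of these, 22 fell in old GSH-high and 29 in old GSH-low, with medians of -0.49 and -0.51. Over all genes 13.7% and 18.7% fell. Ndufa4, a complex IV subunit despite its symbol, is counted in this list and fell in both comparisons (-0.63 and -0.75). Ndufs6 and Ndufv3 led by p in old GSH-high, -0.78 ± 0.13 (SE, adjusted p = 0.00269) and -0.69 ± 0.12 (SE, adjusted p = 0.00292), and Ndufa9 and Ndufc2 in old GSH-low, -0.68 ± 0.10 (SE, adjusted p = 0.00102) and -0.82 ± 0.13 (SE, adjusted p = 0.00149). Between the old fractions no complex I line passed by limma-trend or limma-voom, with 1 higher and 0 lower at an unadjusted p under 0.05.

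Respiratory subunits encoded by mitochondrial DNA gave no limma-trend calls with age. Of 13 such genes 8 were in the table, and none passed in either age comparison; at an unadjusted p under 0.05, 2 were lower in old GSH-high and 1 in old GSH-low, and limma-voom called 1 and 0. Their medians were -0.26 and -0.20. COX1, the catalytic subunit of complex IV, had 1054 and 847 RPKM in young, 886 and 765 in old GSH-high and 908 and 838 in old GSH-low, and CYTB, the mitochondrial subunit of complex III, 1811 and 1426 RPKM in young, 1361 and 1296 in old GSH-high and 1474 and 1364 in old GSH-low. Young replicate 1 was the highest library for both. Oligo(dT) priming copies mitochondrial RNA through its short tails, so levels of these genes are not set against nuclear ones.

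Assembly factors of complexes II to V fell in part. Of 30 tested (34 of 41 measured), 9 fell and 1, Tmem70 (an ATP synthase assembly factor), rose in old GSH-high. In old GSH-low 8 fell, and the medians were -0.19 and -0.22. The shares that fell were 30% and 26.7%, beside 13.7% and 18.7% of all genes tested. Higd1a, a small protein that binds complex IV, had 32.7 and 26.4 RPKM in young, 18.3 and 17.5 in old GSH-high and 16.7 and 17.5 in old GSH-low, with changes of -0.69 ± 0.11 (SE, adjusted p = 0.00188) and -0.75 ± 0.11 (SE, adjusted p = 9.18e-04). Atpif1 was counted in this list, though it is the inhibitor that stops ATP synthase from running in reverse and not an assembly factor. It had 24.3 and 18.2 RPKM in young, 10.3 and 11.7 in old GSH-high and 9.70 and 12.5 in old GSH-low. Its changes were -0.88 ± 0.15 (SE, adjusted p = 0.00337) and -0.87 ± 0.15 (SE, adjusted p = 0.00268). Both genes had every old library below every young one.

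Enzymes of the tricarboxylic acid cycle supply the chain with electrons. Of 13, 5 fell in old GSH-high and 8 in old GSH-low, with medians of -0.15 and -0.26. The shares that fell were 38.5% and 61.5%, beside 13.7% and 18.7% of all genes tested. Suclg1, the shared subunit of succinyl-CoA ligase, which makes the substrate of complex II, had 12.5 and 11.01 RPKM in young, 6.71 and 6.56 in old GSH-high and 5.78 and 6.66 in old GSH-low, with changes of -0.74 ± 0.10 (SE, adjusted p = 8.68e-04) and -0.82 ± 0.10 (SE, adjusted p = 3.66e-04). Fh1, the fumarase that follows complex II in the cycle, changed by -0.42 ± 0.10 (SE, adjusted p = 0.0125) and -0.49 ± 0.10 (SE, adjusted p = 0.00508).

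Among regulators of mitochondrial biogenesis, 11 tested of 12 measured and 13 listed, none fell by limma-trend and Pprc1, a coactivator of the PGC-1 family, rose in both age comparisons. At an unadjusted limma-trend p under 0.05, 2 were higher (Pprc1 and Tfam) and 0 lower in old GSH-high. In old GSH-low 2 were higher (Pprc1 and Nrf1) and 1 was lower. In each age comparison limma-voom called 1 higher and 0 lower. Pprc1 had 40.5 and 42.2 RPKM in young, 57.9 and 54.5 in old GSH-high and 59.2 and 57.1 in old GSH-low, with changes of 0.43 ± 0.08 (SE, adjusted p = 0.00473) and 0.48 ± 0.08 (SE, adjusted p = 0.00207). Nrf1, which encodes the factor that binds the NRF1 string printed in capitals above, had 6.68 and 7.36 RPKM in young, 8.19 and 7.88 in old GSH-high and 8.27 and 8.44 in old GSH-low, and Gabpa, a subunit of the ETS factor GABP, 18.8 and 23.3 RPKM in young, 20.7 and 20.8 in old GSH-high and 18.5 and 16.9 in old GSH-low; Gabpa is 1 of the genes that overlap a respiratory gene, Atp5j. Esrra had 1.63 and 1.23 RPKM in young, 1.03 and 1.46 in old GSH-high and 1.43 and 1.61 in old GSH-low, and Tfam, which packs and transcribes mitochondrial DNA, 18.7 and 16.9 RPKM in young, 21.5 and 20.1 in old GSH-high and 17.6 and 16.9 in old GSH-low. None of these 4 passed the adjusted threshold in any comparison. Between the old fractions Tfam was lower in GSH-low at an unadjusted limma-trend p under 0.05. Ppargc1a, which encodes PGC-1 alpha, stayed below the filter, with 0.357 and 0.436 RPKM in young, 0.496 and 0.566 in old GSH-high and 0.635 and 0.564 in old GSH-low.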

How the data were processed

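RNA of 6 libraries (3 groups of 2) was measured by RNA-seq, as described above. The authors' deposited table gives RPKM for 12067 genes; per the submitters' processing notes, Trim Galore, STAR, featureCounts (Subread) and edgeR were used with build mm10 (GRCm38), and versions are not given in the sources used here. Whole reads were recovered from the RPKM steps for 100% of genes (within 0.02 reads plus a relative 3e-07). The steps imply that the authors scaled by library sizes corrected for composition. The table holds no 0: 230 values in 144 genes, none of the 47 genes among them, sat at a fixed fraction below the next lowest value of their gene and were taken for zeros that had been filled in.

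Genes with at least 1 RPKM in 2 or more libraries were kept (10609; 1458 removed). Values of log2(RPKM + 1), on which fold changes of low genes are understated, were fitted with limma-trend (limma 3.58.1, R 4.3.3) with 1 mean per group in a single fit of all 6 libraries (3 residual degrees of freedom), two-sided, with Benjamini-Hochberg adjustment over all genes and a threshold of 0.05. Every adjusted p is from this fit unless another is named. With 2 libraries per group, p-values measure only the spread between these libraries. A count model had been intended for raw counts; as the table holds RPKM, recovered reads were used in limma-voom only. In all, 17 alternatives were run, of which 2 were chosen after seeing the data (trends over length and GC content, and over coding length, loess span 0.3).

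The 47 genes and all lists were chosen with earlier results of these data known. Values in every library are given for the 6 genes with the smallest adjusted p per comparison, for paralog pairs, and for a fixed set of catalytic and core subunits; up to 3 called genes per related list were named in order of p, and further genes after their values were seen. The fit was tested on simulated data in which each gene varied independently. No shift shared by many genes of a library was simulated, so that test does not bear on the differences between replicates described above. Positions and lengths are from GENCODE M21 (GRCm38) and promoters from RefSeq; 12 of the 47 genes had no promoter entry, and 1, Atp5md, had no position. Of 46 with a position, 18 overlap another gene by their whole spans, 14 of them on the opposite strand. Exons were not compared. The library strand is not stated, so reads from any shared exon bases cannot be told apart. How reads shared with processed pseudogenes were counted is not given in the sources used here. Python 3.11.15 with numpy 2.4.6, pandas 2.3.3 and matplotlib 3.10.9 was used.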

Additional observations from a re-analysis of the deposited data

How the results depend on the processing

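The number of respiratory genes called depended most on single libraries. Leaving out each library in turn gave from 3 to 42 called genes in old GSH-high against young (33 with all libraries), from 11 to 42 in old GSH-low against young (39), and from 0 to 2 in old GSH-low against old GSH-high (1). Between the old fractions 2 genes were called without a filter on low values, with the 4 libraries alone, with the length trend removed and with the coding length trend removed, and 0 with limma-voom. Other alternatives kept the counts within 1.5 times, from 26 to 41 and from 34 to 41 in the 2 age comparisons, and no called gene changed sign in any alternative. In all 17 alternatives 3 calls were kept in old GSH-high (Atp5e, Cox6c and Uqcrb), 11 in old GSH-low and 0 between the old fractions. Over all genes, calls between the old fractions went from 571 to 251 with a filter in all 6 libraries and to 864 with the 4 libraries alone, and ranged from 247 to 864 when single libraries were left out. Causes of these changes were not tested. Some alternatives also hold fewer samples or genes.

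With the replicate number as a block, 26 genes were called in old GSH-high against young, 36 in old GSH-low against young and 1 between the old fractions; 7 and 3 calls were lost in the age comparisons. The labels do not say that numbers pair samples, and the correlation of deviations of same-numbered libraries was -0.142 for young and old GSH-high, -0.263 for young and old GSH-low and 0.0695 for the old fractions. Genes with few reads are limited by depth: 3 reads are 0.0436 to 0.0638 CPM (reads scaled to library size). Cox6a2 rests on 4 to 30 reads per library, Cox7a1 on 23 to 58 and Cox8b on 23 to 96.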
